A study of Rattus norvegicus with 8 samples.

Results

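The genes described here encode nuclear subunits of the last 3 assemblies of the mitochondrial respiratory chain: complex III (ubiquinol-cytochrome c reductase), cytochrome c and complex IV (cytochrome c oxidase), and ATP synthase. They were chosen by name, as probe sets whose annotated gene symbol equals one of 39 listed genes, with the brightest probe set standing for each gene. Of the 39 genes, 34 had a probe set annotated to that gene alone: 8 of 9 in complex III, 12 of 13 in complex IV and 14 of 16 in ATP synthase. Uqcrb, Cycs, Cox7a2, Atp5mc1 and Atp5mc2 share their probe sets with related genes in the annotation and were not analysed here, so cytochrome c itself has no value. All 34 passed the filter on dim probe sets, and 33 lay in the brightest decile of the 10446 genes tested.

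RNA of extraocular muscles, which move the eye, came from adult Sprague-Dawley rats with an initial weight of 200 ± 40 g, per the labels. The hyperthyroid group (4 rats) was injected with T3 (triiodothyronine, the form of thyroid hormone that binds its receptors) into the peritoneum every 2 days for 6 weeks, at 25 µg for each 100 g of weight, and its muscles were taken 24 hours after the last dose. The control group (4 rats) is labelled as untreated, with no sham injection mentioned, so the effect of T3 and that of repeated injection cannot be told apart. Each rat gave 1 array, and the arrays carry the numbers 1, 2, 3 and 5 (hyperthyroid) and 7, 8, 9 and 11 (control), as labelled. The comparison asks how a chronic excess of thyroid hormone goes with gene expression in these muscles.

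Complex III passes electrons from ubiquinol to cytochrome c and pumps protons, complex IV passes them on to oxygen and pumps more, and ATP synthase lets the protons flow back and makes ATP. Their subunits come from both the nuclear and the mitochondrial genome. Complex IV has tissue isoforms of some small subunits, with Cox6a2, Cox7a1 and Cox8b made mainly in heart and skeletal muscle. Thyroid hormone is known to raise oxygen use and mitochondrial content in limb muscle, and extraocular muscles are rich in mitochondria.

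The labelled tissue showed its markers, with one exception. The summed signal of 6 skeletal muscle markers (Ckm, Acta1, Myh4, Myh1, Myh2 and Myh13) ran from 91647 to 126901 in hyperthyroid and from 95049 to 116545 in control arrays. Myh13, the myosin particular to extraocular and laryngeal muscle, had a signal of 4.17 on hyperthyroid 5 and of 5430 or more on each of the other arrays. The sum of 6 slow fibre markers was 55880 on that array and at most 23353 elsewhere, so it goes against its label in these genes, and the main counts are given with and without it. It was also the highest array in adipocyte markers (11801, against 987 to 3957 on the others) and in leukocyte markers (3995, against 1158 to 2130). The 5 measured markers of glia (Mbp, Mobp, Mog, Mag and Gfap) summed to 110 on hyperthyroid 5 and 1121 on hyperthyroid 2, against at least 6971 on the others. The 5 epithelial markers summed to 23.3 to 166 in hyperthyroid and 162 to 738 in control arrays, the 5 fibroblast markers to 9093 to 28526 and 13530 to 22415, and the 2 measured red cell markers to 7235 to 9514 and 8735 to 13698. For the 4 measured endothelial markers the sums were 1345 to 1735 in hyperthyroid and 1120 to 1493 in control arrays. The 3 prime to 5 prime ratio of Gapdh, which is higher in shorter RNA, was 3.91, 4.40 and 2.18 on hyperthyroid 1, 2 and 3 and 1.44 on hyperthyroid 5, against 1.67 to 1.97 in controls. The part of these differences in the results below was not tested, except that some values are also given from a fit in which the Gapdh ratio is a further term.

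Upstream sequence is shown for 4 genes whose hyperthyroid and control signals did not overlap, the 3 such genes of complex III that have an entry in the RefSeq promoter table of build GRCr8, and Cox7b of complex IV. Each run is the 250 bases before the start of the gene, 5′ to 3′ on its own strand. Capitals mark matches, on either strand, to the core of a GABPA (NRF-2) site, CCGGAAG, or to the hexamer that thyroid hormone receptors bind, AGGTCA.
Uqcrc2 (chr1:184598990-184599239, plus strand): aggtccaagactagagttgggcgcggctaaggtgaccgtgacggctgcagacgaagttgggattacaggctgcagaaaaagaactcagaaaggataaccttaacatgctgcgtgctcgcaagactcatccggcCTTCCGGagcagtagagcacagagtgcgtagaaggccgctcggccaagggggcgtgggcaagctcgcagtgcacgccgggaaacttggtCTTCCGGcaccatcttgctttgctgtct
Uqcrfs1 (chr17:34186352-34186601, plus strand): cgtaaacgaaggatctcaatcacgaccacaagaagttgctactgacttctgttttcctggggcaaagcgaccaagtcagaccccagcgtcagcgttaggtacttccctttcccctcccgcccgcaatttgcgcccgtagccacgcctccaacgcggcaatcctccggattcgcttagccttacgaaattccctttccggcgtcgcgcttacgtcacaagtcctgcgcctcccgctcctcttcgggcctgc
Uqcrh (chr5:134790883-134791132, minus strand): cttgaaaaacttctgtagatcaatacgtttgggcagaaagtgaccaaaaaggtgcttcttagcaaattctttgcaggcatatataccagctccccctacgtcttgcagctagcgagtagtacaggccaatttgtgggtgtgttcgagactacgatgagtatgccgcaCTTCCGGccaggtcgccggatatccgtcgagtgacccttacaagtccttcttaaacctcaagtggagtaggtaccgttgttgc
Cox7b (chrX:75148786-75149035, plus strand): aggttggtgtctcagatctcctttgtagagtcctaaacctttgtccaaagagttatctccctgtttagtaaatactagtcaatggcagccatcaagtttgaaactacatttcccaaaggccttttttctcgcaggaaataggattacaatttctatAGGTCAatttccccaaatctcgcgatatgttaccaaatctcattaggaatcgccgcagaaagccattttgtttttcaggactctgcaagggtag
Uqcrc2 held 2 GABPA cores and Uqcrh held 1, Cox7b held 1 thyroid hexamer, and Uqcrfs1 held neither motif. The non-overlapping ATP synthase genes are not shown: Atp5f1a and Atp5mg held 1 of each motif in the same 250 bases, and Atp5pb held neither. Over the full windows of 300 bases, which add 50 after the start, 4 of the 7 non-overlapping members with an entry and 6 of the other 22 measured members held the GABPA core, against 17.0% of 9692 promoters of tested genes and 8.74% of all 33465 promoters. The thyroid hexamer was in 3 of 7 and 7 of 22 (12.1% of tested genes, 16.2% of all). The NRF-1 core was in 0 of 7 and 5 of 22 (9.57% of tested genes, 4.25% of all), and the Sp1 box, GGGCGG, was in 3 of 7 and 7 of 22 (61.2% of tested genes, 33.1% of all). The direct repeat of the thyroid hexamer with a gap of 4 bases was in no member and in 0.00598% of all promoters. These are matches of letters in a short window and do not show that a factor is bound.

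As a set, the measured genes tended to a slightly lower signal in hyperthyroid muscle, as bright genes in general did, and no single one passed the test. Of the 34, 27 had a lower mean log2 signal in hyperthyroid arrays and 7 a higher one, where 48.8% of all genes tested were lower. The median log2 difference, hyperthyroid minus control, was -0.14 over the 34 genes and 0.01 over all 10446. Bright genes in general leaned the same way: in the brightest decile (1046 genes) 63.5% were lower, with a median of -0.09. The scatter of difference against signal shows this lean, and the count of members lower is best read against that 63.5%. Without hyperthyroid 5 the members lay close to the brightest decile. Then 67.6% of members were lower (median -0.13), against 65.8% of that decile (median -0.11). After quantile normalization 22 of the 34 were lower (median -0.08, and 55.4% of the brightest decile), and after median centring, which moves the median of all genes to -0.11, 31 were (median -0.26, and 78.7% of the brightest decile). With the Gapdh ratio as a further term 28 were lower (median -0.18, and 4979 of all 10446 genes). Single members moved either way in that fit. Cyc1 went from -0.52 to -0.57 and Atp5f1b from -0.04 to -0.29, while Atp5pb went from -0.46 to -0.28.

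**Figure D1:**
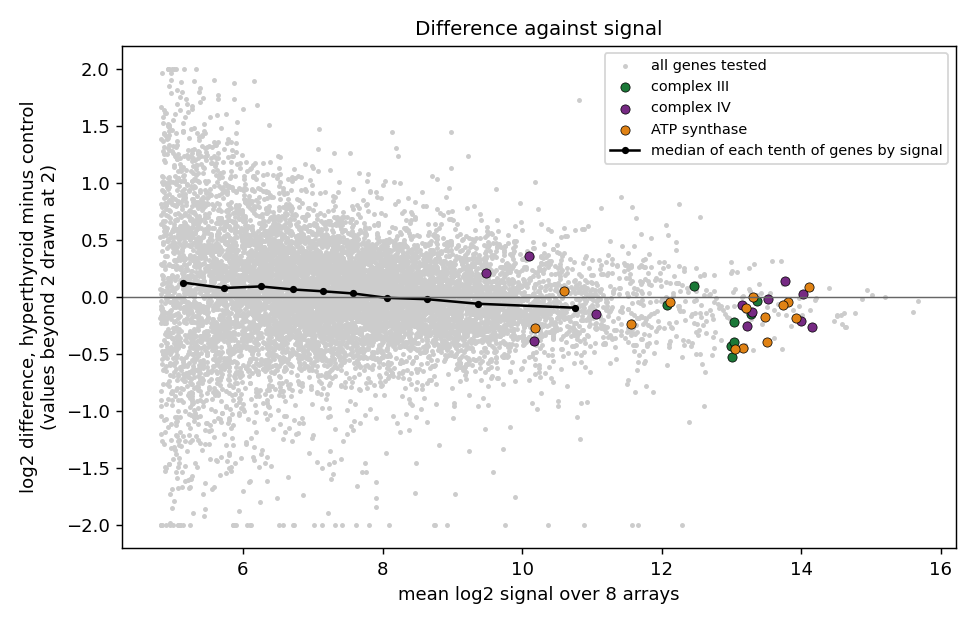
Log2 difference (hyperthyroid minus control) against mean log2 signal for all 10446 genes tested, with the 34 measured subunits coloured by complex and the median of each decile of genes as a black line. The line runs from above 0 in dim genes to -0.09 in the brightest decile, where 33 of the 34 subunits lie, and the subunits run from -0.52 to 0.36.

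None of the 34 genes passed: limma gave 0 calls among them at an adjusted p under 0.05, as among all genes tested (0%). A fit with array weights also gave 0 among the 34, where it called 4 of all 10446 genes. At an unadjusted p under 0.05 in the fit without weights, 7 members were lower (5.83% of all genes and 14.1% of the brightest decile, against 20.6% of members) and 1 was higher (6.34% of all genes). The 7 were Uqcrc2, Uqcrfs1, Cyc1, Cox6a1, Atp5f1a, Atp5mg and Atp5pb, and the 1 was Cox5a. The 4 hyperthyroid signals all lay below the 4 control signals in 9 members, those 7 with Uqcrh and Cox7b (3.75% of all genes, 10.04% of the brightest decile), and all above them in 0 members (4.49% of all genes). This count of 9 was 14 without control 11 (567 of all 10446 genes, from 392 with every array), 11 without hyperthyroid 5 (755 of all genes) and 5 after quantile normalization (387 of all genes). In these alternatives the brightest decile was not counted. With every array its share was 10.04% against 3.75% of all genes, so the counts over all genes are a low background for bright members. Without hyperthyroid 5, 23 of the 34 were lower (65.8% of the brightest decile). At an unadjusted p under 0.05 in limma, 9 were then lower (8.24% of all genes and 23.7% of the brightest decile, against 26.5% of members). At the same level 2 were higher, Cox5a and Cox7a1 (820 of all 10446 genes). Cox5a and Atp5f1b then lay above every control, as 866 of all genes did. Again limma called 0 members, where it called 0.124% of all genes. Where a signal was lower, fewer fibres rich in mitochondria and less RNA of these genes per fibre cannot be told apart in whole muscle. The parts of the lean of bright genes, of the Gapdh ratios and of the off-label markers of hyperthyroid 5 were not separated from these either.

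**Figure D2:**
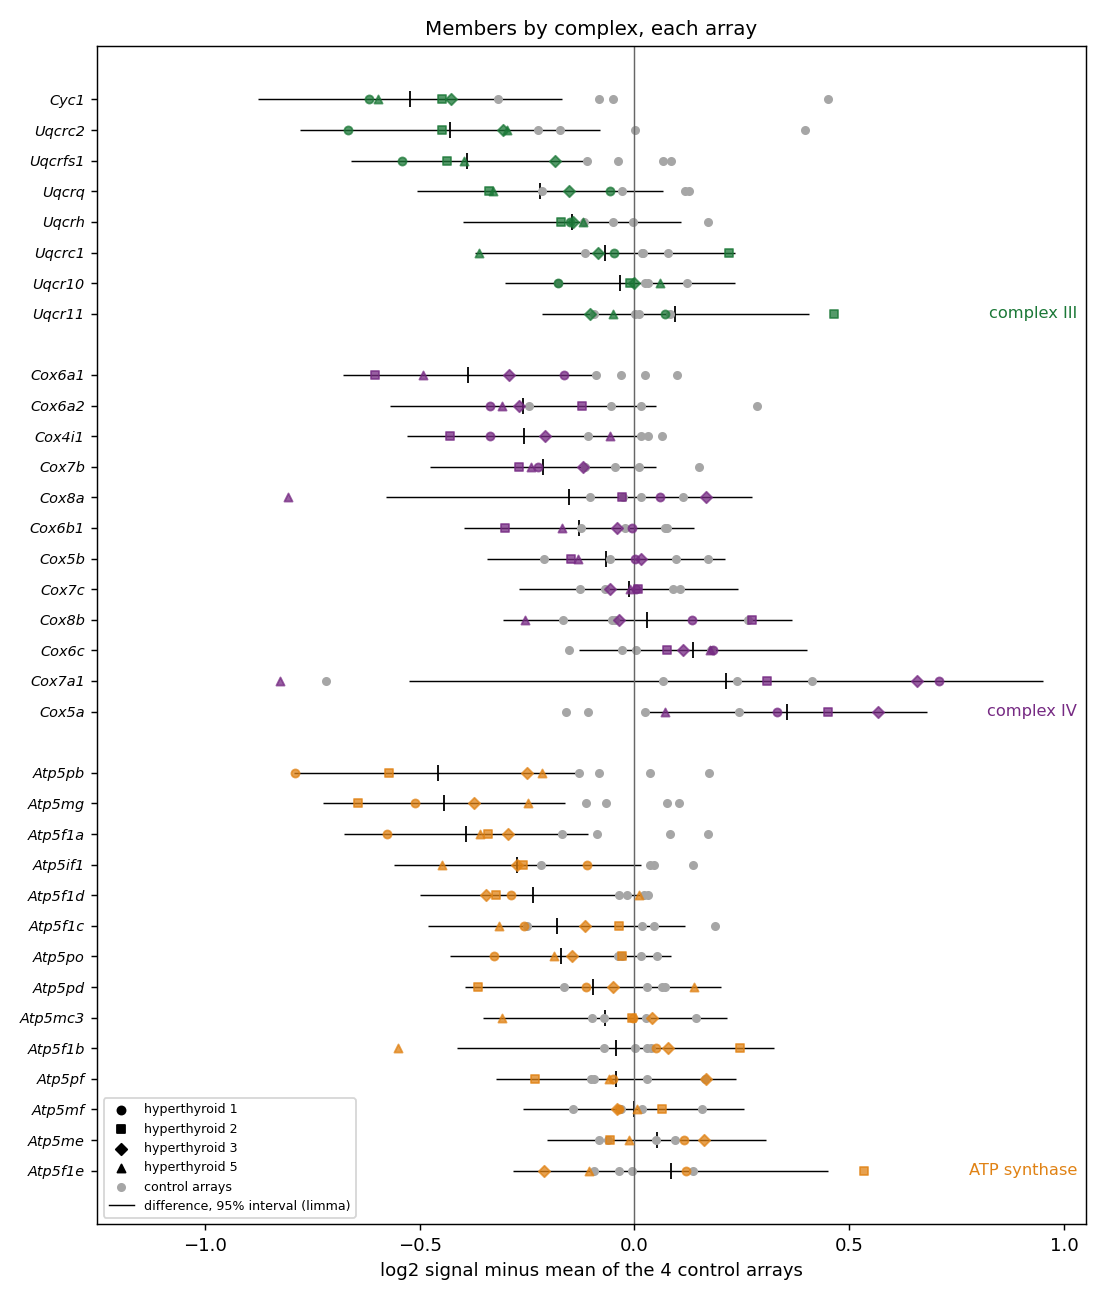
Each of the 34 measured subunits on a line, with log2 signal minus the mean of the control arrays for every array, the log2 difference as a black tick and its 95% confidence interval from limma. In 9 subunits, led by Cyc1 at -0.52, the coloured hyperthyroid symbols all lie to the left of the grey control points, and Cox8a, Atp5f1b and Cox7a1 have their lowest value on hyperthyroid 5.

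The arrays differed in level across the whole set. Control 7 had the highest signal of the 8 arrays in 15 of the 34 members and the lowest in 0, while control 11 had the highest in 0 and the lowest in 4. Hyperthyroid 1, 2, 3 and 5 had the lowest signal in 8, 9, 3 and 8 members. The median deviation of the complex III genes from the control mean was -0.16, -0.25, -0.15 and -0.31 in the hyperthyroid arrays in that order, and 0.12, 0.01, -0.03 and -0.14 in the controls (7, 8, 9, 11), so the groups only just separated. For ATP synthase it was -0.11, -0.14, -0.13 and -0.20, against 0.12, 0.03, 0.02 and -0.10. For complex IV the groups overlapped, at 0.00, -0.07, -0.04 and -0.21 against 0.13, -0.01, -0.00 and -0.13. These medians carry no test.

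**Figure D3:**
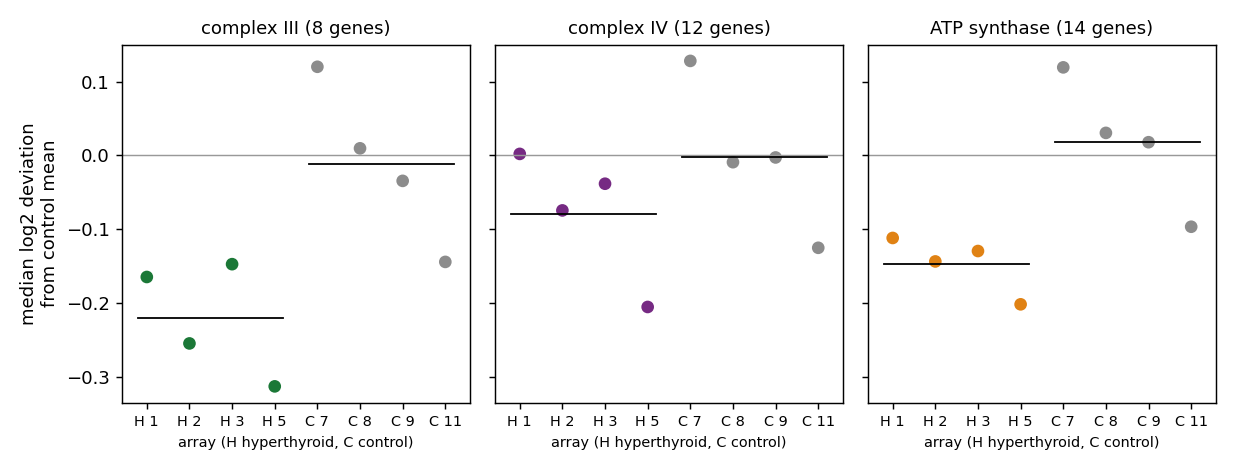
Median log2 deviation from the control mean over the measured genes of each complex, for each of the 8 arrays, with the mean of each group as a black line. Complex III and ATP synthase have all 4 hyperthyroid arrays below the lowest control, which is control 11 (-0.14 and -0.10), and in complex IV hyperthyroid 1 (0.00) lies above 3 of the 4 controls.

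Complex III had 7 of 8 measured genes lower, with a median log2 difference of -0.18. Cyc1, the haem-bearing cytochrome c1, had signals of 6436, 7241, 7342 and 6527 in the hyperthyroid arrays (in the order 1, 2, 3, 5, kept below) and 13493, 9322, 9541 and 7922 in the controls (7, 8, 9, 11). Every hyperthyroid array lay below every control, and control 7 stood well above the other controls. The hyperthyroid mean was 6887 ± 471 and the control mean 10069 ± 2392 (SD, 4 arrays each), and the log2 difference was -0.52 ± 0.16 (SE; adjusted p = 0.306 in limma). Without control 7 it was -0.37.

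Uqcrfs1, the Rieske iron-sulphur protein, stood at 6586, 7081, 8426 and 7270 in hyperthyroid and at 10024, 10161, 9322 and 8869 in control arrays. The groups did not overlap, hyperthyroid 3 coming nearest to the controls. Its log2 difference was -0.39 ± 0.12 (SE; adjusted p = 0.312 in limma), and the hyperthyroid mean was 76.5% of the control mean.

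The core proteins Uqcrc1 and Uqcrc2 face the matrix and resemble processing peptidases. Uqcrc2 stood at 5936, 6915, 7627 and 7676 in hyperthyroid and 12406, 9435, 8367 and 8069 in control arrays, with no overlap and a log2 difference of -0.43 ± 0.16 (SE; adjusted p = 0.352 in limma). Uqcrc1 ran from 3426 to 5129 and from 4064 to 4646, which overlap, with a log2 difference of -0.07 (95% confidence interval -0.37 to 0.23) that was 0.03 without hyperthyroid 5. The difference between the 2 genes was not tested. A second, dimmer probe set of Uqcrc2 had 354, 434, 954 and 1718 in hyperthyroid and 1667, 2208, 1878 and 1188 in control arrays, a log2 difference of -1.26 ± 0.42 (SE; adjusted p = 0.331 in limma), and the mean of both probe sets was at -0.84. Hyperthyroid 1, 2 and 3, the arrays with Gapdh ratios above every control, were the 3 low ones, and hyperthyroid 5 lay within the control range. Those 3 arrays also differ from hyperthyroid 5 in Myh13 and the slow fibre markers, and which of these goes with the signal was not tested.

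Among the small subunits of complex III, Uqcrh, the hinge protein that helps cytochrome c dock, was at 9439, 9316, 9491 and 9648 against 11810, 10121, 9659 and 10452. The groups just failed to overlap, since the highest hyperthyroid value was 9648 and the lowest control value 9659, and the log2 difference was -0.15 ± 0.12 (SE). It was -0.089 without control 7 and -0.062 after quantile normalization. Uqcrq was at -0.22 and Uqcr10 at -0.03 on the same scale. Uqcr11 was the one gene of the complex with a higher mean, at 5758, 7565, 5108 and 5295 against 5807, 5488, 5521 and 5139. Its log2 difference of 0.10 ± 0.14 (SE) rested on hyperthyroid 2, without which it was -0.03.

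**Figure D4:**
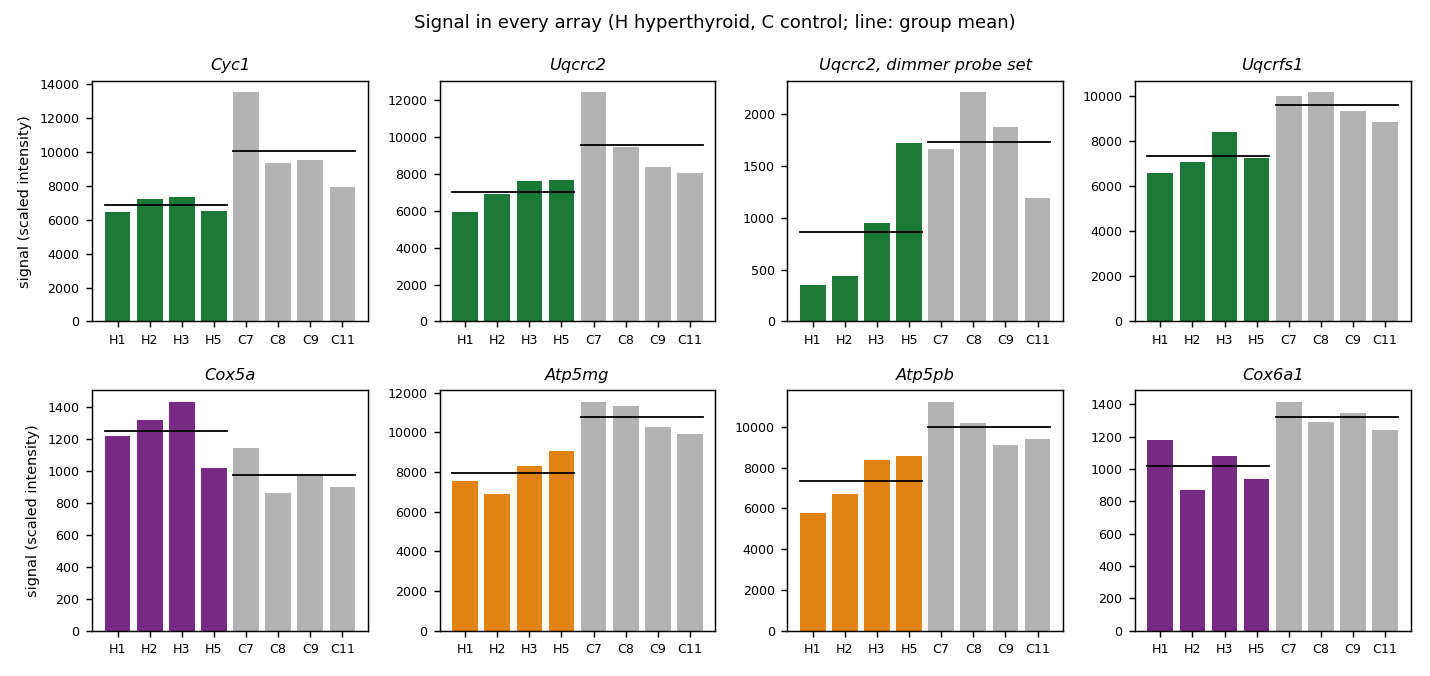
Signal of 7 subunits and of the dimmer Uqcrc2 probe set in each array, with bars from 0 and the group mean as a line. Cyc1, Uqcrc2, Uqcrfs1, Atp5mg, Atp5pb and Cox6a1 have 4 hyperthyroid bars below every control bar, the dimmer Uqcrc2 probe set has hyperthyroid 5 at 1718 beside the controls, and Cox5a has 3 hyperthyroid bars above the highest control.

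Complex IV was mixed, with 8 of 12 measured genes lower and a median log2 difference of -0.10, or -0.03 without hyperthyroid 5 (7 of 12 lower). Cox4i1, the subunit through which ATP slows the enzyme, was at 8316, 7796, 9087 and 10095 in hyperthyroid and 10600, 10719, 10967 and 9737 in control arrays. Hyperthyroid 5 was the one array that reached the controls. The log2 difference was -0.26 ± 0.12 (SE; adjusted p = 0.459 in limma) -0.32 without that array, and -0.13 once the Gapdh ratio entered the fit.

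Cox5a, a matrix-side subunit of the oxidase that assembles early with Cox4i1, had a higher mean. It stood at 1217, 1321, 1431 and 1016 against 1144, 865, 983 and 897. Hyperthyroid 1, 2 and 3, the arrays with Gapdh ratios above every control, were above all controls in Cox5a, and hyperthyroid 5 was not. Of these arrays, hyperthyroid 3 had the smallest ratio (2.18) and the highest Cox5a signal (1431). They also differ from hyperthyroid 5 in Myh13 and the slow fibre markers, and which of these goes with the signal was not tested. The log2 difference of Cox5a was 0.36 ± 0.15 (SE; adjusted p = 0.404 in limma), the highest of the 34 genes, and it was 0.45 ± 0.13 without hyperthyroid 5 (adjusted p = 0.161 in limma, and 0.161 to 0.605 over the alternatives) and 0.24 after median centring. It was 0.25 once the Gapdh ratio entered the fit. Cox7b, a small membrane subunit, was lower without overlap, at 15079, 14626, 16229 and 14902 against 19556, 17753, 17070 and 16273, with a log2 difference of -0.21 ± 0.12 (SE). Cox5b, Cox6b1, Cox6c and Cox7c lay between -0.13 (Cox6b1) and 0.14 (Cox6c), each with overlapping groups.

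Of the isoforms of complex IV, the 2 measured ubiquitous forms had a lower mean, though Cox8a turned without hyperthyroid 5. Among the 3 muscle forms 1 was lower and 2 were higher. Cox6a1, the ubiquitous form, was at 1179, 869, 1079 and 940 in hyperthyroid and 1414, 1292, 1343 and 1241 in control arrays. The groups did not overlap, and the log2 difference was -0.39 ± 0.13 (SE; adjusted p = 0.332 in limma), or -0.23 without hyperthyroid 2 and 5. Its muscle partner Cox6a2 was at 15735, 18278, 16509 and 16048 against 24220, 20077, 19139 and 16771, where hyperthyroid 2 overlapped the controls, with a log2 difference of -0.26 ± 0.14 (SE) that was -0.16 without control 7. Within arrays, the log2 ratio of Cox6a2 to Cox6a1 was higher by 0.13 in hyperthyroid muscle, which is within the spread between arrays (SD 0.28 and 0.15; exact permutation p = 0.543, two-sided).

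Cox8b, the muscle form, was at 18095, 19953, 16095 and 13828 against 19799, 15983, 15903 and 14706, a log2 difference of 0.03 (95% confidence interval -0.31 to 0.37). Cox8a, the ubiquitous form, was at 2341, 2203, 2519 and 1284 against 2271, 2205, 2092 and 2428. Hyperthyroid 5 was far below the other 7 arrays in Cox8a, and the log2 difference went from -0.15 to 0.07 without it. The log2 ratio of Cox8b to Cox8a was higher by 0.18 (SD 0.32 and 0.22; exact permutation p = 0.343, two-sided), and by 0.06 without hyperthyroid 5. Both ratios had an adjusted p of 0.543 over the 2 pairs (exact permutation test, smallest possible p 0.0286). Cox7a1, the muscle form whose partner had no probe set of its own, was at 1089, 824, 1051 and 376 against 698, 887, 786 and 405, with the lowest values on hyperthyroid 5 and control 11. Its log2 difference was 0.21 ± 0.34 (SE) with all arrays, 0.56 ± 0.23 without hyperthyroid 5 and -0.03 without control 11.

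ATP synthase had 12 of 14 measured genes lower, with a median log2 difference of -0.13. Atp5f1a, the alpha chain of the F1 head, where ATP is made, was at 8944, 10524, 10880 and 10393 in hyperthyroid and 15012, 14127, 12558 and 11861 in control arrays. The groups did not overlap, with a mean of 10185 ± 853 against 13390 ± 1438 (SD, 4 arrays each) and a log2 difference of -0.39 ± 0.13 (SE; adjusted p = 0.330 in limma). Atp5f1b, the catalytic beta chain, was at 15190, 17388, 15487 and 10009 against 15066, 13969, 14971 and 14667. Hyperthyroid 5 was below and the other hyperthyroid arrays above every control, so that the log2 difference was -0.04 ± 0.17 (SE) with that array and 0.13 ± 0.11 without it. The difference between the 2 chains was not tested.

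The central stalk, which turns inside the head, had no separated gene. Atp5f1c (gamma) was at -0.18 and Atp5f1d (delta) at -0.24 on the log2 scale. Atp5f1e (epsilon) was at 18736, 24994, 14909 and 16016 against 18946, 17165, 16835 and 16159, with hyperthyroid 2 the highest and hyperthyroid 3 the lowest of the 8, and a log2 difference of 0.08 ± 0.17 (SE) that was -0.07 without hyperthyroid 2.

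The peripheral stalk, which holds the head still, had 4 of 4 measured genes lower (with the Gapdh term Atp5pd turned to 0.045 and Atp5pf to 0.0080, after quantile normalization Atp5pd turned to 0.0023, and without hyperthyroid 2 and 5 Atp5pf turned to 0.058), and Atp5pb alone separated the groups. Atp5pb, its b subunit, was at 5754, 6699, 8363 and 8571 in hyperthyroid and 11221, 10204, 9104 and 9404 in control arrays. Hyperthyroid 1 and 2, the arrays with the highest Gapdh ratios, were the lowest. The mean was 73.6% of the control mean and the log2 difference -0.46 ± 0.15 (SE; adjusted p = 0.331 in limma), or -0.28 once the Gapdh ratio entered the fit. Atp5pd, Atp5pf and Atp5po (the oligomycin sensitivity protein) were at -0.10, -0.04 and -0.17, with overlapping groups. Atp5po also turned higher as the mean of its probe sets, since a dim one was at 0.79 ± 0.37 (log2 ± SE).

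Among the membrane subunits, Atp5mg, the g subunit that takes part in pairing of the enzyme, had the smallest p of the 34 genes. It stood at 7541, 6878, 8293 and 9051 against 11533, 11323, 10262 and 9926. The groups did not overlap, and hyperthyroid 5 came nearest to the controls. The mean was 7940 ± 939 against 10761 ± 787 (SD, 4 arrays each), and the log2 difference was -0.44 ± 0.13 (SE; adjusted p = 0.284 in limma). Without hyperthyroid 5 it was -0.51 ± 0.11 (adjusted p = 0.0929 in limma, and 0.0929 to 0.485 over the alternatives), and it was -0.32 once the Gapdh ratio entered the fit. The e and f subunits that lie beside it in the membrane, Atp5me and Atp5mf, were at 0.05 and -0.00, and Atp5mc3, which encodes the c subunit of the rotor ring, at -0.07.

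Atp5if1, the inhibitor that stops ATP synthase from running backwards, was at 1180, 1065, 1056 and 936 against 1316, 1309, 1401 and 1096. Hyperthyroid 1 overlapped the lowest control, and the log2 difference was -0.27 ± 0.13 (SE; adjusted p = 0.454 in limma). A dimmer probe set of the gene was at 0.32 ± 0.36 (SE), with signals from 40.9 to 138.

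Other genes of the same machinery, taken from lists of related genes, gave the following. Of 26 assembly factors tested, 14 were lower, 3 of them at an unadjusted p under 0.05 in limma, and 0 were higher at that level; their median was -0.01. Uqcc2, needed to build complex III, was at 1275, 1555, 1619 and 1734 against 2225, 2134, 2075 and 2295, a log2 difference of -0.51 ± 0.13 (SE; adjusted p = 0.255 in limma). Coa3, which acts in the assembly of complex IV, was at 421, 496, 524 and 517 against 753, 693, 723 and 636 (-0.52 ± 0.13; adjusted p = 0.265 in limma). The third of them was Cox19, at -0.39, and these 3 of the 26 had hyperthyroid signals below every control, where 3.75% of all genes did and 5.83% were lower at that p.

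Of 6 further subunits tested, Cox7a2l, which joins complex III to complex IV in supercomplexes, was higher without overlap. It stood at 1677, 1618, 1493 and 1996 against 1283, 1400, 1171 and 1097, a log2 difference of 0.45 ± 0.14 (SE; adjusted p = 0.290 in limma). Atp5mk, a small ATP synthase subunit, was at 0.11 ± 0.12. The mitochondrial transcripts COX1 and COX2, which encode the catalytic subunits of complex IV and were looked up under the symbols of the array annotation, were at -0.04 ± 0.19 and -0.13 ± 0.19 (log2 ± SE), with COX1 signals of 42062 to 64737 in hyperthyroid and 45637 to 66254 in control arrays. Of 8 carriers and channels, 5 were lower, with Vdac2, a pore of the outer membrane, at -0.39 ± 0.13 and the phosphate carrier Slc25a3 at -0.23 ± 0.12. For the complexes where electrons enter the chain, 25 of 33 complex I genes were lower (median -0.14, 11 lower and 1 higher at an unadjusted p under 0.05 in limma, with Ndufb10 and Ndufs8 at -0.54 and -0.45), and 4 of 4 complex II genes were lower (median -0.39, with Sdhb at -0.59 and Sdhc at -0.40). Over all genes 48.8% were lower and 5.83% were so at that p, and in the brightest decile 63.5% and 14.1%. The 4 complex II genes were all lower at that p. Hyperthyroid signals lay below every control in 9 of the 33 complex I genes and in 4 of 4 complex II genes. That held for 3.75% of all genes and 10.04% of the brightest decile. In limma, 0 genes of these lists had an adjusted p under 0.05.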

How the data were processed

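Total RNA of 8 rats was hybridised to Affymetrix GeneChip arrays, 1 array per rat. The deposited intensity values are linear and were made by the authors with GCOS (no version given), per the submitters' processing notes. They had been scaled, since the mean after trimming 2% at each end was 150.05 to 150.06 on every array. Medians were 47.7 to 58.4.

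The 57 manufacturer controls were left out. Values were set to at least 1 and taken to log2, and the upper 60% of probe sets by mean log2 signal were kept (18625, geometric mean of 28.2 or more). The test was limma 3.58.1 (R 4.3.3), with eBayes moderation following the trend of variance with signal. It was two-sided, and p-values were adjusted by Benjamini-Hochberg over all 18625 probe sets. The fit was tested on simulated data with independent noise and shifts larger than that of any member. This checked the code and does not measure power for differences as small as those here. A gene was its brightest probe set, and a probe set annotated to several genes named none. The number of arrays limits the precision; the sources used here give no batches. P-values measure the spread between these rats.

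The members, gene lists and tests were chosen with earlier results of these data known. Signals in every array are given for the 3 smallest p-values and the largest increase of each complex, for members without overlap between groups, for the isoform pairs, and for Cyc1, Uqcrfs1, Cox4i1, Atp5f1b and Atp5if1. For related lists, the 2 smallest p-values are named. COX1, COX2, Cox19 and the dimmer probe sets were added after their values were seen. The promoters shown, and the split of promoters by overlap between groups, were also chosen from the values of these data. The Cox7a pair and a comparison of isoform proteins were planned and not run here. The alternatives were other normalizations, filters, variance models, array weights, 32 added before log2, the mean of a gene's probe sets, a Gapdh covariate and leaving out arrays.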

Additional observations from a re-analysis of the deposited data

Results flagged for a closer look

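Among 74 sets of 4 values (34 genes and 3 complex medians in each group), 2 held a value far from the other 3, or 2.70%, where chance gives about 1 in 20. Both were on the array labelled hyperthyroid 5. Atp5f1d had a signal of 3295 on it against 2572 to 2679 on the other hyperthyroid arrays, which puts it within the control range (3189 to 3341). Without this array its log2 difference went from -0.24 to -0.32. Atp5mc3 had 11336 on it against 13976 to 14426 on the other hyperthyroid arrays, below every control (13095 to 15484), and its log2 difference went from -0.07 to 0.01 without it.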

How the results depend on the processing

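In all 19 alternatives to the fit as described, limma called 0 of the 34 genes at an adjusted p under 0.05. Over all 10446 genes it called 4 with array weights, 6 with the Gapdh covariate, 13 without hyperthyroid 5 and 4 without hyperthyroid 2 and 5. The other alternatives gave no call over all genes. The count of genes lower was 23 to 29 when 1 array was left out. The count lower at an unadjusted p under 0.05 was 6 to 9 when 1 array was left out and 13 after median centring, which takes the count over all genes from 609 to 1012. The count lower without overlap was 5 after quantile normalization and 9 to 14 when 1 array was left out. The 14 came without control 11, where with fewer arrays the count over all genes also went from 392 to 567. Apart from the unadjusted count without hyperthyroid 5 (23.7% of the brightest decile), neither count was made for the brightest decile in the alternatives. Under median centring the complex medians moved beyond the spread between arrays, to -0.30 for complex III, -0.22 for complex IV and -0.25 for ATP synthase. Within that spread, they were also further from 0 with the Gapdh covariate (-0.24, -0.15 and -0.18 in that order). Leaving out control 11 likewise gave -0.22, -0.13 and -0.17. They came nearer to 0 in others: complex III was at -0.095 and complex IV at -0.022 after quantile normalization, complex IV at -0.0076 without hyperthyroid 2 and 5, and ATP synthase at -0.056 with the mean over probe sets. Median centring shifts every gene, since it moves the median of all genes from 0.01 to -0.11.

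The shift of Cox6a2 over Cox6a1 was 0.01 to 0.23, and that of Cox8b over Cox8a 0.06 to 0.31, when 1 array was left out. Without hyperthyroid 2 and 5 both turned, to -0.074 and -0.063. Genes near 0 also changed sign. Uqcr11 was at -0.024 under median centring, -0.067 with the Gapdh covariate, -0.016 without hyperthyroid 2 and 5, and -0.028 to 0.16 when 1 array was left out. Cox7a1 was at -0.20 with the covariate and -0.027 to 0.56 with 1 array left out. Cox8a was at 0.0057 with array weights, 0.11 without hyperthyroid 2 and 5, and -0.26 to 0.066 with 1 array left out. Cox8b was at -0.090 under median centring, -0.17 with the covariate and -0.052 to 0.12 with 1 array left out. Atp5f1b was at 0.028 with array weights, 0.065 without hyperthyroid 2 and 5, and -0.14 to 0.13 with 1 array left out. Atp5f1e was at -0.035 under median centring, -0.14 with the covariate, -0.045 without hyperthyroid 2 and 5, and -0.066 to 0.18 with 1 array left out. Atp5if1 was at 0.022 as the mean of its probe sets. The cause was not tested. Among members given by their difference only, Uqcrc1 and Atp5mc3 turned without hyperthyroid 5, Uqcr10, Cox5b, Cox7c, Atp5mf and Atp5pd after quantile normalization, Atp5pf with the covariate, Atp5po as the mean of its probe sets, and Atp5me under median centring (-0.068). No paired analysis was possible because the groups share no replicate number.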

Other observations

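Each array was the highest or the lowest of the 8 in some of the 34 genes, and hyperthyroid 5 was so in 9, fewer than control 7 (highest in 15). It was the lowest in Cox8a and Atp5f1b among others and the highest in Atp5pd (10752 against at most 10267). Hyperthyroid 5 had Myh7, the slow myosin, at 13031 against at most 4097 elsewhere.

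The dimmer Uqcrc2 probe set had a log2 difference of -1.68 ± 0.30 (SE) without hyperthyroid 5, against -0.47 for the brighter probe set of the gene, and did not pass the threshold (adjusted p = 0.0614 in limma). A dim probe set of Atp5po (signals of 25.9 to 112) was higher in each hyperthyroid array than in any control, at 0.79 ± 0.37 (log2 ± SE), while the bright one was at -0.17.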
